A study of Homo sapiens with 8 samples.

Results

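The genes described here are the 10 effectors and targets of YAP and TAZ named by the rule for this set, found by their identifiers among the 58721 genes counted in each library. They are the coactivators YAP1 and WWTR1 (the gene for TAZ), the transcription factors TEAD1 and TEAD2, and the target genes CYR61, CTGF, ANKRD1, AMOTL2, AXL and LATS2. CYR61 and CTGF are now also called CCN1 and CCN2. The rule names the genes and applies no threshold to measured values.

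Messenger RNA was sequenced from 2 established human neuroblastoma lines. CHLA-20, a line without MYCN amplification, grew in IMEM with serum, insulin, transferrin and selenium, and NGP, a MYCN-amplified line, grew in RPMI1640 with serum. Each line received the vehicle DMSO or an inhibitor of PRMT5, the enzyme that places symmetric dimethyl marks on arginine residues, for 6 days at its IC50 dose. The inhibitor is JSK591 by the sample names, which are followed here, and GSK591 by the treatment protocol, and no concentration is given. There were 8 libraries in 4 groups of 2, with 33188542 to 34914902 gene counts each. Because the lines differ in medium, line and medium cannot be told apart. The labels do not say that replicates came from different cultures. The p-values therefore measure the spread between these libraries, which may be technical.

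YAP and TAZ do not bind DNA themselves. They enter the nucleus and join TEAD factors on the promoters and enhancers of growth and matrix genes. The Hippo kinases STK3 and STK4 (MST2 and MST1) activate LATS1 and LATS2, which phosphorylate YAP and TAZ and keep them in the cytoplasm, where angiomotins also hold them. CYR61, CTGF, ANKRD1, AMOTL2, AXL and LATS2 are widely used readouts of the complex, and AMOTL2 and LATS2 act back on it as inhibitors. In neuroblastoma, YAP1 is best known from cells of the mesenchymal state. Messenger RNA levels do not show where YAP and TAZ sit in the cell or whether they are phosphorylated.

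To show what TEAD factors can read at these genes, RefSeq promoter windows (GRCh38.p14, 250 bases before to 50 after a transcript start) were searched for the TEAD core motif GGAATG on both strands, where the reverse strand reads CATTCC. Windows were matched for 8 of the 10 genes, 12 windows in all. No window was matched for CYR61 or TEAD1, so these were not searched. The motif was held by 6 of the windows, 1 each for YAP1, CTGF, ANKRD1, AMOTL2, AXL and LATS2. Over all 35116 windows of this length 14.0% held at least 1 copy, 1.37% at least 2 and 0.128% at least 3. The CTGF window held 3 copies, starting 169, 104 and 95 bases before the start, and the ANKRD1 window 2, at 220 and 128 bases before it. The second AMOTL2 window held 1 copy at 69 bases before its start. The 250 bases before the start are shown for CTGF (chr6:131951373-131951622, minus strand) and ANKRD1 (chr10:90921088-90921337, minus strand), the members with several copies, and for AMOTL2 (chr3:134374448-134374697, minus strand), a well-counted member. They read 5′ to 3′ along the gene, with the TEAD motif in capitals.
CTGF: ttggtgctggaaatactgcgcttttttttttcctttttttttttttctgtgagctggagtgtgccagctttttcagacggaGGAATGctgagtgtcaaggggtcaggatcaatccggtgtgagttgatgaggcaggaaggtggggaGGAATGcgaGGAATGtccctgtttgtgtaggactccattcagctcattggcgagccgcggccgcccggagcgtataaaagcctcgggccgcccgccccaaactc
ANKRD1: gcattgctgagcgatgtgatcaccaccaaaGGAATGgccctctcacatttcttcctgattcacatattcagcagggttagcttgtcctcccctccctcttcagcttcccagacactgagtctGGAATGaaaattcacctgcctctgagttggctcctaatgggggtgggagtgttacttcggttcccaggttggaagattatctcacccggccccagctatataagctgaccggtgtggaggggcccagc
AMOTL2: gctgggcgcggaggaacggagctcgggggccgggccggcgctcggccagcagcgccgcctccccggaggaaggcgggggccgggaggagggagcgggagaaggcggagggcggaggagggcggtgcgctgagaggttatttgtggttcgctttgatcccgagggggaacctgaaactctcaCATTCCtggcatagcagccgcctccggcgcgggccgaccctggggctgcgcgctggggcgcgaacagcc
The pattern TGANTCA, which allows any base in the middle and so is looser than the AP-1 consensus, was also searched. It reads the same on both strands and is not contained in the TEAD motif. It was found in 1 member window, that of ANKRD1, where it read TGATTCA, and in 7.71% of all windows. A match is a run of letters and was not tested as a binding site.

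All 10 genes were counted in at least 1 library, but their levels spanned a very wide range. Per kilobase of exon, which is the scale used here to compare genes (CPM, counts scaled to the size of the library, divided by the length of the merged exons), TEAD1 stood at 18.7 in CHLA-20 with DMSO and 21.9 in NGP with DMSO. It was followed by TEAD2 (4.15 and 7.20) and AMOTL2 (2.91 and 3.96), and by CYR61 at 0.772 and 6.94. In NGP with DMSO, the per-length levels of TEAD2 and CYR61 were 7.20 ± 0.43 and 6.94 ± 0.11 (SD, n = 2), which do not differ beyond their spread. Per kilobase of the longest transcript they were 8.79 ± 0.53 and 7.44 ± 0.12, apart by more than their SDs, so this depends on the length used. The other 6 genes lay at or under 0.247 CPM per kilobase in every group. In CHLA-20 with DMSO their order was CTGF (0.247 ± 0.063), WWTR1 (0.0862 ± 0.0024), YAP1 (0.0611 ± 0.033), LATS2 (0.0265), AXL (0.00862) and ANKRD1 (0.00749). WWTR1 and YAP1 do not differ beyond their spread on this scale. Per kilobase of the longest transcript they were 0.144 ± 0.0040 and 0.0713 ± 0.039, apart by more than their SDs. AXL and ANKRD1 rest on 3 counts and 1 count. In NGP with DMSO WWTR1 led these 6 at 0.0693, and the others held at most 4 counts each. Both coactivator genes were counted far below their TEAD partners in both lines. In bulk RNA, fewer cells with a transcript and less transcript per cell cannot be told apart.

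**Figure D1:**
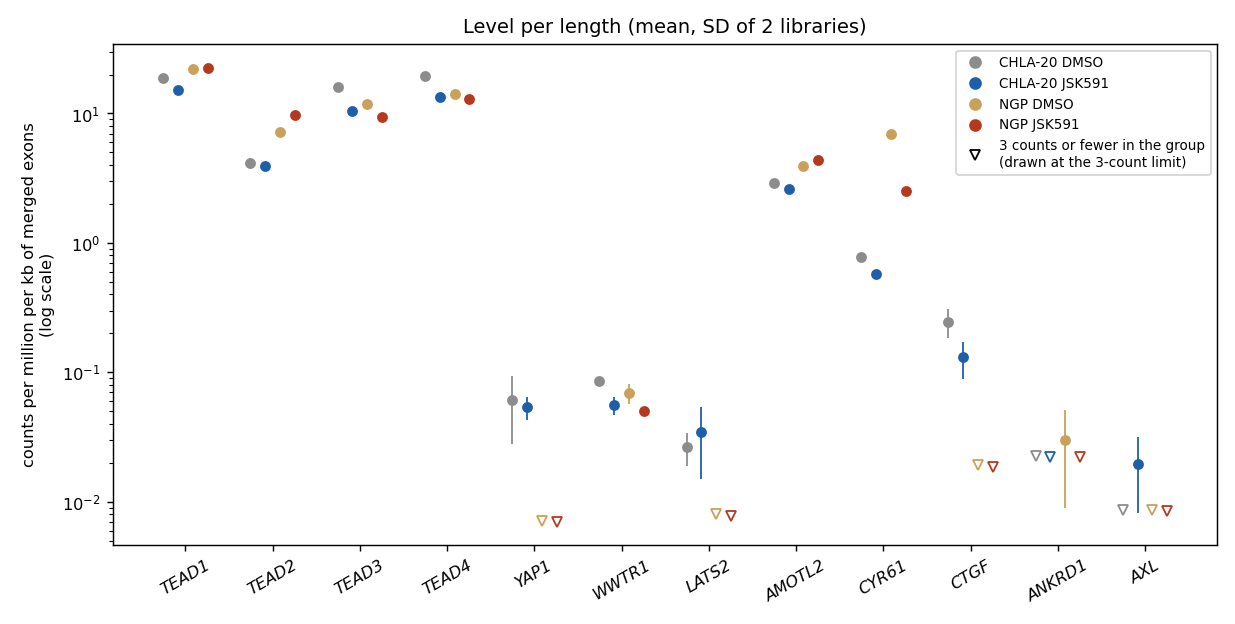
Level of the 10 genes and of TEAD3 and TEAD4 in CPM per kilobase of merged exons on a log axis, by group, with the mean and SD of 2 libraries. Open triangles mark the limit of 3 counts where a group holds 3 counts or fewer. TEAD1 lies between 15.1 and 22.5 in all 4 groups, while YAP1 and WWTR1 lie under 0.1.

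TEAD1 (ENSG00000187079.16, chromosome 11, 12674591 to 12944483, GRCh38, plus strand) encodes a DNA-binding partner of YAP and TAZ. In CHLA-20 it was counted at 196 and 189 CPM with DMSO and at 152 and 158 CPM with JSK591. In NGP it was counted at 230 and 220 CPM with DMSO and at 235 and 228 CPM with JSK591. Both JSK591 libraries of CHLA-20 lay below both DMSO libraries, whereas the NGP groups overlapped. TEAD1 fell by 0.31 ± 0.04 on the log2 scale in CHLA-20 (estimate ± SE, edgeR adjusted p = 1.21e-09). In NGP the change was 0.04 ± 0.04 (edgeR adjusted p = 0.445). The test of the difference itself gave 0.35 ± 0.05 for NGP minus CHLA-20 (edgeR adjusted p = 6.67e-07). With DMSO, TEAD1 was 0.23 ± 0.04 higher in NGP on the log2 scale (edgeR adjusted p = 4.05e-07).

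TEAD2 (ENSG00000074219.13, chromosome 19, 49340595 to 49362457, minus strand), a family member prominent in embryonic and neural tissue, moved in the other line. In NGP it was counted at 20.5 and 22.4 CPM with DMSO and at 29.4 and 28.6 CPM with JSK591. In CHLA-20 it was counted at 13.1 and 11.6 CPM with DMSO and at 11.7 and 11.9 CPM with JSK591. The NGP groups were apart, and in CHLA-20 both JSK591 values lay between the DMSO values. TEAD2 rose by 0.44 ± 0.07 on the log2 scale in NGP (edgeR adjusted p = 3.38e-07), and the change in CHLA-20 was -0.07 ± 0.08 (edgeR adjusted p = 0.556). The effects differed by 0.51 ± 0.11 (edgeR adjusted p = 0.000199). With DMSO, TEAD2 was 0.79 ± 0.08 higher in NGP (log2; edgeR adjusted p = 3.11e-14), a fold of 1.73. Of its exonic bases, 10.7% overlap CD37, which lies on the other strand and had 0 to 15 counts per library.

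TEAD3 and TEAD4, which bind the same motif, complete the family. In CHLA-20, TEAD3 fell from 48.4 ± 0.78 to 31.8 ± 1.7 CPM and TEAD4 from 44.2 ± 0.29 to 30.3 ± 0.12 CPM (mean ± SD, n = 2), log2 changes of -0.61 ± 0.06 and -0.55 ± 0.06. In NGP, TEAD3 fell by 0.33 ± 0.06, and TEAD4 gave -0.13 ± 0.06 without passing (edgeR adjusted p = 0.0871). The difference of the effects passed for both, at 0.28 ± 0.08 for TEAD3 and 0.42 ± 0.08 for TEAD4. Per kilobase, TEAD1 made up 32.1% ± 0.38 of the summed level of the 4 TEAD genes in CHLA-20 with DMSO and 35.3% ± 1.0 with JSK591. In NGP its share was 39.8% ± 2.5 with DMSO and 41.3% ± 0.28 with JSK591. The TEAD2 share was 7.13% and 9.23% in CHLA-20 and 13.1% and 17.8% in NGP, in the same order of treatments. The shares of TEAD3 and TEAD4 were lower with JSK591 in both lines, at 27.3% and 24.4% for TEAD3 in CHLA-20 and 21.5% and 17.3% in NGP. For TEAD4 they were 33.4% and 31.1% in CHLA-20 and 25.6% and 23.6% in NGP. These shares are given with no test, and they depend on the length used. Per kilobase of the longest transcript, TEAD4 made up 37.3% and TEAD3 23.1% in CHLA-20 with DMSO, and TEAD1 32.4%. The shares were not corrected for GC content, which is 41.3% for TEAD1, 58.4% for TEAD2, 59.8% for TEAD3 and 60.4% for TEAD4.

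The coactivator YAP1 (ENSG00000137693.13, chromosome 11, 102110461 to 102233423, plus strand) was close to the limit of detection. In CHLA-20 it had 18 and 8 counts with DMSO and 10 and 13 with JSK591. In NGP it had 2 and 1 counts with DMSO and 1 and 0 with JSK591. Every CHLA-20 library held more YAP1 counts than any NGP library, and the treatments overlapped in CHLA-20. With DMSO, 26 counts in CHLA-20 stood against 3 in NGP, an 8.59-fold lower rate in NGP (exact 95% interval 2.63 to 44.3, covering counting error only). The edgeR difference was -3.00 ± 0.77 on the log2 scale (edgeR adjusted p = 0.00039), and it was -2.31 without CHLA-20 DMSO replicate 1, whose 18 counts were the highest. With JSK591 the counts were 23 and 1, a rate 23.1-fold lower in NGP (3.75 to 953). Within CHLA-20, JSK591 gave 0.875 times the DMSO rate (0.477 to 1.60), an interval that spans 1, and within NGP the counts were too few for a comparison.

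WWTR1 (ENSG00000018408.14, chromosome 3, 149517235 to 149736714, minus strand) encodes TAZ, the paralogue of YAP. In CHLA-20 it had 25 and 24 counts with DMSO and 18 and 14 with JSK591. In NGP it had 22 and 17 counts with DMSO and 14 and 15 with JSK591. In each line both JSK591 libraries lay below both DMSO libraries, but neither difference passed the test. The rate with JSK591 was 0.646 times that with DMSO in CHLA-20 (exact 95% interval 0.400 to 1.03; edgeR adjusted p = 0.194) and 0.725 times in NGP (0.432 to 1.20; edgeR adjusted p = 0.404). A difference of WWTR1 between the lines was not detectable at this depth, and the NGP rate with DMSO was 0.803 times that of CHLA-20 (0.514 to 1.25; edgeR adjusted p = 0.436). WWTR1-AS1 overlaps 9.45% of its exonic bases and AP000942.2 overlaps 9.97% of those of YAP1. Whether the counting used strand is not given. Reads that matched more than 1 gene were left out, so reads from the shared bases could be missing from these counts. Depending on the strand setting, a few of the counts could also belong to the overlapping gene.

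**Figure D2:**
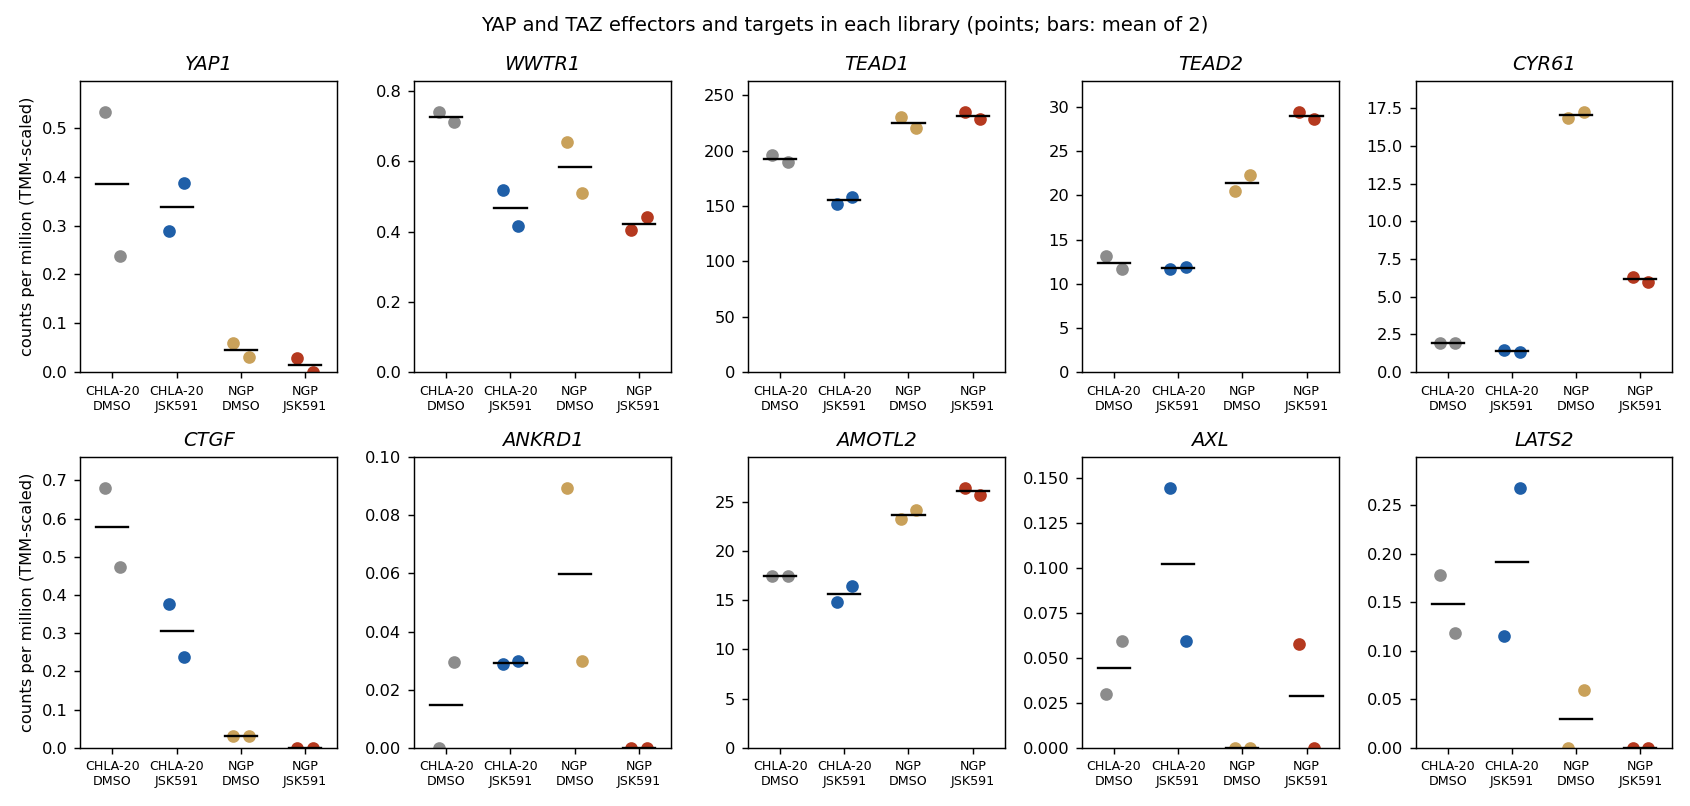
CPM of the 10 genes in each of the 8 libraries, by line and treatment, each point being 1 library. The CYR61 points of NGP lie at 16.8 and 17.2 with DMSO and at 6.32 and 6.0 with JSK591, and the CHLA-20 points all lie under 2.

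CYR61 (ENSG00000142871.16, chromosome 1, 85580761 to 85583962, plus strand), a secreted matrix protein that binds integrins, had the largest change called with JSK591 among the members. In NGP it was counted at 16.8 and 17.2 CPM with DMSO and at 6.32 and 6.0 CPM with JSK591, from 565 and 575 against 219 and 204 counts. In CHLA-20 it was counted at 1.89 and 1.90 CPM with DMSO and at 1.47 and 1.34 CPM with JSK591, from 64 and 64 against 51 and 45 counts. In both lines the JSK591 libraries lay below the DMSO libraries, and the NGP libraries with JSK591 still lay above all CHLA-20 libraries. CYR61 fell by 1.47 ± 0.10 on the log2 scale in NGP, 2.76-fold (edgeR adjusted p = 4.51e-19). In CHLA-20 the change was -0.43 ± 0.20, which did not pass (edgeR adjusted p = 0.0826). The effects differed by -1.04 ± 0.23 (edgeR adjusted p = 0.000289). With DMSO, CYR61 was 8.97-fold higher in NGP (log2 3.17 ± 0.12, edgeR adjusted p = 1.74e-32).

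CTGF (ENSG00000118523.5, chromosome 6, 131948176 to 131951373, minus strand), a matrix protein of the same CCN family whose promoter is shown above, differed between the lines in the other direction. It had 23 and 16 counts in CHLA-20 with DMSO, 13 and 8 with JSK591, and in NGP 1 and 1 with DMSO and 0 and 0 with JSK591. All CHLA-20 libraries lay above all NGP libraries. With DMSO, its rate was 19.3-fold lower in NGP (39 against 2 counts, exact 95% interval 5.00 to 165; edgeR log2 difference -4.11 ± 0.75, adjusted p = 1.82e-06). With JSK591, 21 counts in CHLA-20 stood against 0 in NGP. With the 0 set to a limit of 3 counts over the group, the rate was 7.04-fold lower in NGP. This takes the 21 as exact and is not a lower bound of the ratio. In CHLA-20 JSK591 gave 0.533 times the DMSO rate. The counting interval of this ratio, 0.298 to 0.928, lies below 1, but the test over libraries did not pass (log2 -0.90 ± 0.46, edgeR adjusted p = 0.118). Thus the CCN pair was split between the lines, with CYR61 higher and CTGF lower in NGP.

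AMOTL2 (ENSG00000114019.14, chromosome 3, 134355874 to 134375479, minus strand), an angiomotin that binds YAP and is itself a YAP target, was well counted in every library. In CHLA-20 it stood at 17.4 and 17.4 CPM with DMSO and at 14.8 and 16.4 CPM with JSK591. In NGP it stood at 23.3 and 24.1 CPM with DMSO and at 26.4 and 25.7 CPM with JSK591. The JSK591 libraries lay below the DMSO libraries in CHLA-20 and above them in NGP, but neither change passed, at -0.16 ± 0.07 (edgeR adjusted p = 0.0858) and 0.14 ± 0.07 (edgeR adjusted p = 0.102). The difference of the effects was 0.29 ± 0.10 (edgeR adjusted p = 0.0201). This call was lost in 9 of 16 alternative settings, with adjusted p from 0.015 to 0.251. Among them were DESeq2 (0.117), removal of the trend in GC content (0.251) and leaving out either CHLA-20 DMSO library (0.0523 and 0.105), CHLA-20 JSK591 replicate 1 (0.159), either NGP DMSO library (0.165 and 0.0576) or NGP JSK591 replicate 1 (0.155). With DMSO, AMOTL2 was 0.45 ± 0.07 higher in NGP (edgeR adjusted p = 7.41e-08), and 0.71 with the GC trend removed.

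ANKRD1, AXL and LATS2 fell under the filter on low counts and were not tested. ANKRD1 (ENSG00000148677.6, chromosome 10, 90912096 to 90921276, minus strand), a nuclear ankyrin protein best known from muscle, had 0 and 1 counts in CHLA-20 with DMSO, 1 and 1 with JSK591, 3 and 1 in NGP with DMSO, and 0 and 0 with JSK591. AXL (ENSG00000167601.11, chromosome 19, 41219203 to 41261766, plus strand), a receptor tyrosine kinase for GAS6, had 1 and 2 counts in CHLA-20 with DMSO, 5 and 2 with JSK591, 0 and 0 in NGP with DMSO, and 2 and 0 with JSK591. LATS2 (ENSG00000150457.8, chromosome 13, 20973032 to 21061547, minus strand), the Hippo kinase induced by YAP, had 6 and 4 counts in CHLA-20 with DMSO, 4 and 9 with JSK591, 0 and 2 in NGP with DMSO, and 0 and 0 with JSK591. No library held more than 9 counts of any of these 3 genes. In CHLA-20 their rates with JSK591 were not distinguishable from those with DMSO at this depth, at 2.31 times for AXL (exact 95% interval 0.527 to 13.8) and 1.29 times for LATS2 (0.521 to 3.28). LATS2 had fewer counts in NGP, but this difference was not tested over libraries. With DMSO, 10 counts stood against 2, a ratio of 4.95 (1.06 to 46.5, covering counting error only). With JSK591, 13 stood against 0, a ratio of 4.36 with the 0 set to 3 counts over the group and the 13 taken as exact.

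The deposited tables also hold 0 or 1 counts per library for SCRIB, a widely expressed polarity gene, and for CHGA, a neuroendocrine marker. Whether a count near 0 means a low RNA level cannot be told from these counts alone. The genes around the weakly counted members were mixed. Of the 6 nearest protein-coding genes, 3 on each side, a mean of 1 CPM was reached by 3 at YAP1, 2 at WWTR1, 3 at CTGF, 5 at ANKRD1, 4 at AXL and 6 at LATS2. At YAP1, for example, BIRC2 had 430 to 1367 counts per library and CFAP300 0 to 12. At WWTR1, COMMD2 had 1293 to 1622 counts and TM4SF4 0 to 35. The check was added after the counts were seen, and how far a low count reflects the counting was not tested.

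Counted over the 7 tested members, 0 rose and 1 fell in CHLA-20 with JSK591 (TEAD1), against 16.9% of all 19395 tested genes called higher and 22.4% called lower by edgeR at an adjusted p under 0.05. At an unadjusted p under 0.05 edgeR had 0 members higher and 3 lower, and DESeq2 called 0 higher. In NGP 1 rose (TEAD2) and 1 fell (CYR61), against 16.8% and 19.4% of all genes. The effects differed for 4 members, with TEAD1, TEAD2 and AMOTL2 higher in NGP relative to CHLA-20 and CYR61 lower, against 15.2% and 12.5% of all genes. With DMSO, 4 members were higher in NGP (TEAD1, TEAD2, CYR61 and AMOTL2) and 2 lower (YAP1 and CTGF), against 36.6% and 38.9% of all genes. The median log2 change of the 7 was -0.31 in CHLA-20 and -0.46 in NGP, beside -0.02 and 0.00 over all genes tested. In NGP, YAP1 and CTGF had a group at or under 3 counts, and the median of the other 5 was 0.04. Genes that are low in every group could not enter these counts, and both treatment contrasts share their DMSO libraries with the comparison of the lines.

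**Figure D3:**
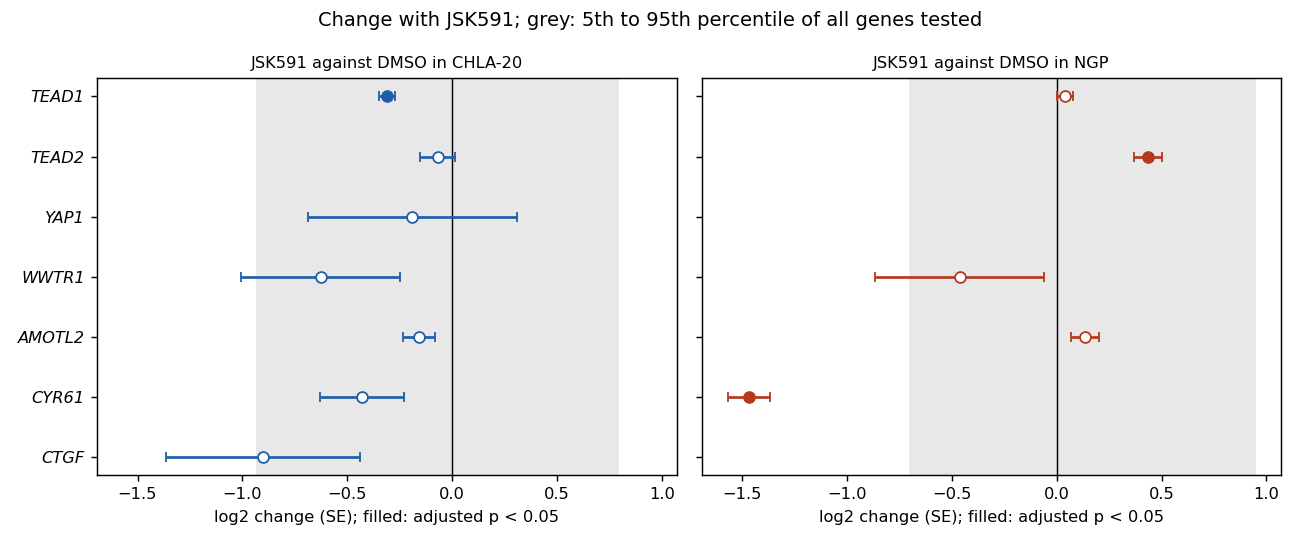
Log2 change with JSK591 (estimate and SE) of the tested members in CHLA-20 and NGP, with filled points at an edgeR adjusted p under 0.05 and the grey band from the 5th to the 95th percentile of all tested genes. YAP1 and CTGF are left out in NGP, where a group holds 3 counts or fewer. CYR61 in NGP lies at -1.47, outside the band, and TEAD1 and TEAD2 lie inside it.

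The Hippo kinases and their adaptors, the step above YAP and TAZ, were well counted. Of 10 tested, 3 rose and 3 fell in CHLA-20 and 2 rose and 2 fell in NGP, with medians of 0.04 and 0.03. Over all genes tested 16.9% rose and 22.4% fell in CHLA-20 and 16.8% and 19.4% in NGP. The effects were higher in NGP relative to CHLA-20 for 15.2% and lower for 12.5%. With DMSO, 36.6% were higher in NGP and 38.9% lower. These shares are the background for this and the following lists. The 3 that fell in CHLA-20 became 1 without CHLA-20 DMSO replicate 1. STK4 rose by 0.24 ± 0.06 in CHLA-20, while STK3 fell by 0.46 ± 0.08 there and by 0.38 ± 0.08 in NGP. TAOK2, a kinase that can activate STK3 and STK4, rose by 0.28 ± 0.05 in NGP. The effects differed for LATS1, the kinase that acts on YAP directly, which rose in CHLA-20 from 43.2 ± 2.7 to 49.2 ± 1.3 CPM and fell in NGP from 68.4 ± 5.3 to 54.1 ± 1.9 CPM (difference -0.52 ± 0.08). Its adaptor MOB1A differed in the opposite direction, by 0.34 ± 0.06. In total 2 effects of this group were higher and 3 lower in NGP relative to CHLA-20. With DMSO, 5 were higher in NGP and 4 lower, led by STK4 (0.79 ± 0.05) and TAOK3 (-1.27 ± 0.06). LATS2, the paralogue of LATS1 among the members, had at most 13 counts per group.

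Among upstream regulators and cytoplasmic binders of YAP, 14 of 15 were tested. In CHLA-20 3 rose and 5 fell (median -0.07), with the giant cadherin FAT4 up by 0.43 ± 0.06 and the phosphatase PTPN14, which binds YAP, down by 0.91 ± 0.18. The angiomotin AMOT, a relative of AMOTL2, fell there from 43.2 ± 0.21 to 25.3 ± 0.45 CPM. In NGP 5 rose and 3 fell (median 0.10), with the cadherin DCHS1, the partner of FAT4, up by 0.52 ± 0.05 and the scaffold RASSF1 down by 0.63 ± 0.10. The effects were higher in NGP relative to CHLA-20 for 6, most for AMOT (0.57 ± 0.08), and lower for RASSF1 (-0.34 ± 0.12, a call lost in 7 of 16 alternatives). With DMSO, 3 were higher in NGP and 10 lower (median -0.74), beside 36.6% and 38.9% of all genes. They ran from WWC1 (1.01 ± 0.06) to FRMD6 (-1.92 ± 0.06). The count of 5 risers in NGP ran from 3 to 7 over the alternatives and was 3 without NGP DMSO replicate 2 or either NGP JSK591 library. The 5 that fell in CHLA-20 became 3 without CHLA-20 JSK591 replicate 2.

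The other TEAD and VGLL genes numbered 6, of which 4 were tested. VGLL proteins compete with YAP for TEAD. In CHLA-20 1 rose and 3 fell (median -0.58), namely TEAD3, TEAD4 and VGLL3. VGLL4, a TEAD repressor, rose by 0.15 ± 0.05, a call lost in 4 of 17 alternatives, and VGLL3 fell by 1.25 ± 0.51 from 31 to 13 counts, a call lost in 7 of 15 and at -0.48 without CHLA-20 DMSO replicate 1. In NGP 0 rose (1 at an unadjusted edgeR p under 0.05 and 0 by DESeq2) and TEAD3 fell (median -0.01). The effects of 3 genes were higher in NGP relative to CHLA-20, most for VGLL3 (1.68 ± 0.55), which fell under the threshold in 4 of 15 alternatives and was 0.90 without CHLA-20 DMSO replicate 1. With DMSO, the log2 difference of NGP from CHLA-20 was 2.23 ± 0.30 for VGLL3 and -0.84 ± 0.06 for VGLL4. In this comparison 1 gene of the group was higher and 3 lower. The 3 lower became 1 with the GC trend removed. The 1 higher became 0 with at least 10 counts in every library, a filter that VGLL3 did not pass.

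Other genes of a published YAP and TAZ target set were called in both directions in each line. They include PTPN14, which is also counted among the upstream regulators above. Of 16 listed, 14 were tested, and 4 rose and 4 fell in CHLA-20 (median 0.02) and 5 rose and 3 fell in NGP (median 0.16, 2 to 5 risers over the alternatives). The 5 risers in NGP became 3 without NGP DMSO replicate 2 or NGP JSK591 replicate 1 and 2 without NGP JSK591 replicate 2, and the 4 that fell in CHLA-20 became 2 without CHLA-20 DMSO replicate 2. NT5E, the ecto-enzyme CD73, rose in CHLA-20 from 6.22 ± 0.62 to 10.2 ± 0.47 CPM. In NGP it went from 7 to 20 counts (1.45 ± 0.59, edgeR adjusted p = 0.0479, up to 0.208 over the alternatives). MYOF, a membrane repair protein, fell in CHLA-20 from 24 to 9 counts (-1.41 ± 0.52, edgeR adjusted p = 0.0246, lost in 3 of 16 alternatives). The kinase NUAK2 rose by 0.48 ± 0.16 in CHLA-20 and fell by 0.58 ± 0.20 in NGP (DESeq2 adjusted p = 0.0616), a difference of -1.06 ± 0.25. The effects were higher in NGP relative to CHLA-20 for 4 genes of the set, most for MYOF (1.36 ± 0.52, lost in 9 of 15 alternatives), and lower for 3. With DMSO, 6 were higher in NGP and 7 lower, and the extremes were MYOF (5.90 ± 0.16) and NT5E (-5.84 ± 0.28).

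SRF and its MRTF cofactors, which share cytoskeletal inputs with YAP, were counted with their targets in a list of 15 genes. Of 13 tested, 3 rose and 6 fell in CHLA-20 (median -0.28) and 0 rose and 5 fell in NGP (median -0.12), beside 16.9%, 22.4%, 16.8% and 19.4% of all genes in the same order, with 0 risers there also at an unadjusted edgeR p under 0.05 and by DESeq2. The 3 risers in CHLA-20 became 5 with the GC trend removed. The counts include the factors themselves, MRTFB among the risers in CHLA-20 (0.22) and SRF among the genes that fell in NGP (-0.23). CNN2, a calponin, fell from 56.5 ± 1.2 to 29.5 ± 0.54 CPM in CHLA-20 and from 16.4 ± 0.19 to 11.4 ± 0.13 CPM in NGP. CNN1 fell in CHLA-20 from 42 to 18 counts (-1.23 ± 0.42, lost in 3 of 16 alternatives). ACTA2, smooth muscle actin, rose by 1.72 ± 0.22 in CHLA-20 and gave -0.56 ± 0.33 in NGP, a difference of -2.27 ± 0.40. FAS and ACTA2-AS1 overlap 30.1% of its exonic bases. In all, 4 effects were higher in NGP relative to CHLA-20, most for CNN2 (0.41 ± 0.09), and 3 lower. With DMSO, 3 of these genes were higher in NGP and 9 lower, from CNN1 (2.89 ± 0.23) to TPM2 (-6.24 ± 0.26).

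**Figure D4:**
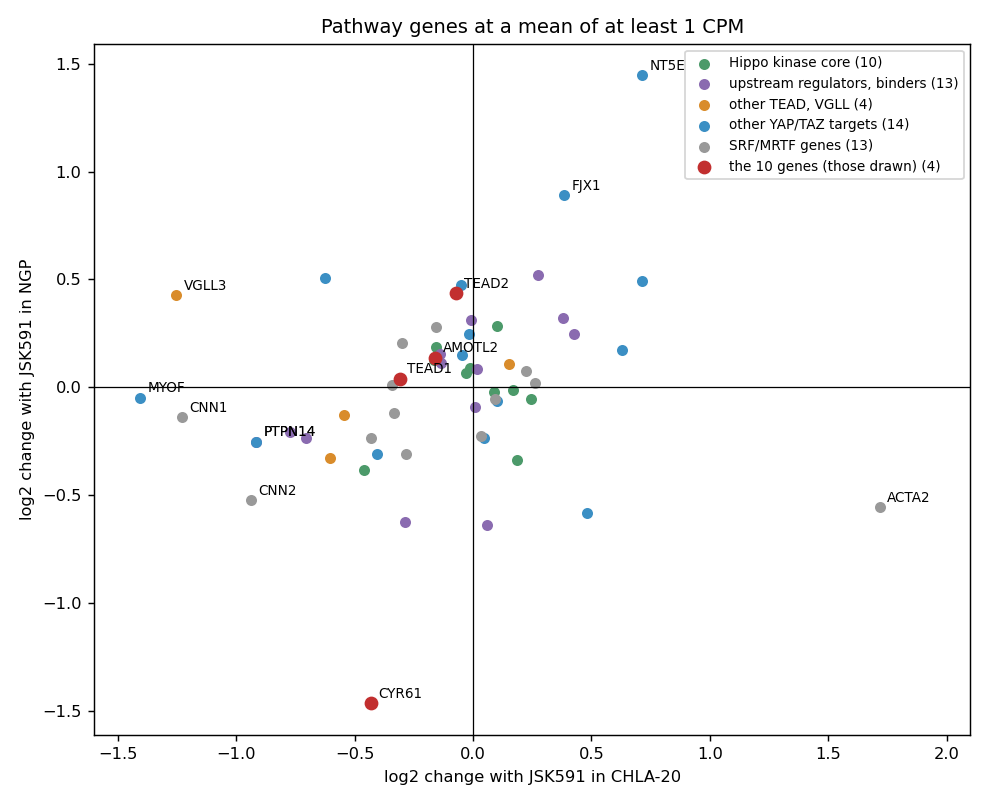
Log2 change with JSK591 in CHLA-20 (x axis) against NGP (y axis) for genes with a mean of at least 1 CPM, coloured by group: 10 Hippo kinases and adaptors, 13 upstream regulators, 4 other TEAD and VGLL genes, 14 other targets, 13 SRF and MRTF genes and 4 members. Each point is 1 gene, except that PTPN14, listed both as an upstream regulator and as a target, is drawn in both groups. No library is shared between the axes. ACTA2 at 1.72 in CHLA-20 and CYR61 at -1.47 in NGP lie far from the origin.

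AXL belongs to the TAM receptors, whose other members and ligands were counted. The receptor TYRO3 fell from 35.0 ± 0.072 to 24.8 ± 0.36 CPM in CHLA-20 and from 52.0 ± 1.4 to 39.9 ± 0.75 CPM in NGP. Of the 4 genes TYRO3, MERTK, GAS6 and PROS1, 3 fell in CHLA-20 and 2 in NGP (medians -0.41 and -0.32), beside 22.4% and 19.4% of all genes. The 2 in NGP became 1 by DESeq2 and without NGP JSK591 replicate 2. No rise was called in either line, also at an unadjusted edgeR p under 0.05 (0 genes) and by DESeq2 (0 genes). The ligand PROS1 fell by 0.77 ± 0.13 in CHLA-20, and the difference of its effects (0.46 ± 0.17) was lost in 8 of 16 alternatives. With DMSO, 3 of the 4 were higher in NGP and 1 lower, MERTK at 2.38 ± 0.21 and GAS6 at -0.69 ± 0.06 on the log2 scale (-0.21 with the GC trend removed). Of the other CCN genes, 3 of 4 were tested and 0 changed with JSK591 in CHLA-20 (0 at an unadjusted edgeR p under 0.05 and 0 by DESeq2). In NGP NOV had 0 counts in every library, and 0 of the other 2 changed (also 0 at an unadjusted edgeR p under 0.05 and 0 by DESeq2). With DMSO, 1 was higher in NGP and 1 lower. The lower one was NOV, also called CCN3, with 79 counts in CHLA-20 and 0 in NGP, and the higher one, WISP2, was called by edgeR (adjusted p = 0.0394) but not by DESeq2; both are named because the counts are so small, after their values were seen.

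For each tested member, protein-coding genes of the most similar profile over the 8 libraries were found among 12285 candidates by the root mean square difference of centred log2 CPM. CYR61 was closest to the immediate-early factor EGR1 (0.14 on the log2 scale) and to MITF (0.25), which changed with JSK591 by -0.23 and -0.38 in CHLA-20 and by -1.18 and -0.87 in NGP. TEAD1 was closest to PHTF1 (0.04), TEAD2 to SCRT2 (0.08) and TCEANC2 (0.09), and AMOTL2 to LTBP3 and RNF144A (0.05 each). Among the weakly counted members, the closest genes were HBEGF and SMIM10L2A for YAP1 (0.31 each) and C11orf96 (0.22) and CRAT (0.24) for CTGF. For WWTR1 they were SH3D21 and SCLT1 (0.10 each). These are descriptions over 8 libraries that share 2 lines, with no test.

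The labelled cell type was checked against markers. Of 9 markers of sympathetic neuroblasts 8 reached 1 CPM in a CHLA-20 library, CHGA being the exception. In NGP 6 did, without TH and DBH, the enzymes of catecholamine synthesis, which had 51 and 19 counts with DMSO against 93249 and 3159 in CHLA-20. The summed level of the 9 was 3908 to 4045 CPM in CHLA-20 with DMSO, 3117 to 3204 with JSK591, 2146 to 2297 in NGP with DMSO and 2214.1 to 2214.3 with JSK591. Of 8 fibroblast markers 7 reached 1 CPM in a CHLA-20 library and 5 in an NGP library, with sums of 499.0 to 500.2 CPM in CHLA-20 with DMSO and 430 to 435 with JSK591. In NGP the fibroblast sum was 696 to 710 with DMSO and 791 to 829 with JSK591. With DMSO, 3 of the 7 tested markers were higher in NGP and 4 lower (median log2 -1.70), beside 36.6% and 38.9% of all genes. COL1A1 had 36609 counts in NGP against 4796 in CHLA-20, while DCN had 8 against 9083 and LUM 253 against 10655. With JSK591, COL1A1 and PDGFRA rose in NGP while LUM and PDGFRB fell, and the median over the 7 tested markers was -0.17. The part of these genes in the changes of TEAD2 and CYR61 was not tested. Of 6 Schwann cell markers 2 reached 1 CPM in CHLA-20 and 1 in NGP, and none of 5 endothelial or 6 blood cell markers did, with sums under 1 CPM in every library. The epithelial markers, 4 of 6 at 1 CPM in CHLA-20 and 1 of 6 in NGP, summed to 2.66 to 9.26 CPM.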

How the data were processed

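Counts are whole numbers of reads per gene, 1 library per file, as the authors deposited them. The submitters' processing notes name STAR, HTSeq, DESeq2 and GRCh38 (hg38). Versions and the strand setting are not given in the sources used here. Lines that name no gene were left out: they took 5.15% to 6.86% (no gene), 6.77% to 7.18% (more than 1 gene) and 19.2% to 22.0% (more than 1 alignment) of the reads in the tables. All 58721 identifiers were found, with version, in GENCODE 29.

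Counts were tested with edgeR 4.0.16 (R 4.3.3): filterByExpr over the 4 groups, which kept 19395 genes, TMM scaling, and 1 quasi-likelihood fit of the 4 groups to all 8 libraries, with Benjamini-Hochberg adjustment over all genes tested and a threshold of 0.05. The fit has 4 residual degrees of freedom and a biological coefficient of variation of 2.76%. The SE is the log2 change divided by the root of F. The script was tested on simulated counts. Ratios of summed counts have exact (Clopper-Pearson) 95% intervals, and a count of 0 allows up to 3, at most 0.0904 CPM per library. Both cover counting error only and leave out the spread between libraries. They take each read as a separate molecule, since PCR copies of a molecule could not be told apart.

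The members and the lists were chosen with earlier results of these data known. Besides the members, the text names, per list and contrast, the gene past the threshold with the largest log2 change in each direction at a mean of at least 1 CPM; TEAD4, the other effects given for a gene so named, and genes said to be chosen later are additions. For each tested member the 2 genes of the most similar profile were sought, and 1 of them is not reported here. MKL1 and MKL2 are older names of listed genes. Alternatives covered scaling, filters, DESeq2 1.42.0, GC content, the replicate block, the libraries fitted and leaving out each library.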

Additional observations from a re-analysis of the deposited data

Results flagged for a closer look

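For 4 members the JSK591 effect differed between the lines by the test of the difference itself. NGP minus CHLA-20 was 0.35 ± 0.05 on the log2 scale for TEAD1, where the decrease was called in CHLA-20, and 0.51 ± 0.11 for TEAD2, where the increase was called in NGP. It was -1.04 ± 0.23 for CYR61, whose decrease was called in NGP, and 0.29 ± 0.10 for AMOTL2, with neither line's change called. The AMOTL2 call was lost in 9 of 16 alternatives, among them DESeq2 (adjusted p = 0.117). The edgeR adjusted p-values were 6.67e-07, 0.000199, 0.000289 and 0.0201 in this order. Groups of 2 libraries were too small for a check of single libraries that stand apart. Line and medium cannot be told apart in these differences.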

How the results depend on the processing

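Counts of members called were unchanged or within 1.5 times in all alternatives but 2, both for members lower in NGP with DMSO: 2 became 0 with at least 10 counts in every library, where 5 members were tested and YAP1 and CTGF were not, and 1 (CTGF) with only the libraries concerned, where 6 were tested. Leaving out 1 library at a time kept this count at 2. Of the members' log2 values under alternatives, 427 kept their direction and side of the threshold, 9 lost the call, all of them the AMOTL2 difference (0.15 to 0.29), and 7 turned direction, none of them a called value: YAP1 in CHLA-20 (0.50 without CHLA-20 DMSO replicate 1 and 0.01 without CHLA-20 JSK591 replicate 1, in a range of -0.63 to 0.50 over single libraries left out), TEAD2 in CHLA-20 (0.059 with the GC trend removed and 0.024 without CHLA-20 DMSO replicate 1, range -0.13 to 0.024), TEAD1 in NGP (-0.0071 without NGP DMSO replicate 2 and -0.0021 without NGP JSK591 replicate 1, range -0.0071 to 0.062) and the WWTR1 difference (-0.046 without NGP DMSO replicate 2, range -0.046 to 0.33). The cause was not tested. The called changes ranged from -0.35 to -0.28 for TEAD1 in CHLA-20, from 0.35 to 0.48 for TEAD2 in NGP and from -1.53 to -1.43 for CYR61 in NGP.

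Same-numbered libraries showed no shared deviation over the tested genes (correlations -0.027 to 0.012). Whether they were handled as pairs cannot be told from this, since counting noise lowers such correlations. With a replicate block over the whole fit, CYR61 in NGP gave -1.47 and TEAD1 in CHLA-20 -0.31, members called stayed at 0 higher and 1 lower in CHLA-20, 1 and 1 in NGP, 3 and 1 for the difference and 4 and 2 between the lines, and no member's call changed.

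The same alternatives were run for the pathway lists and genes after the data had been seen. Of the genes' values 622 kept their call and 56 lost it, and 67 of the list counts moved by over 1.5 times, most often the 2 higher TAM differences (0 to 2, in 11 alternatives), the 1 higher CCN gene between the lines (0 to 1, in 10) and the 1 lower upstream difference (0 to 1, in 6). The fit of only the libraries concerned was not run for the difference, nor the block within lines for the comparison of lines. Depth limits YAP1, WWTR1, CTGF, ANKRD1, AXL and LATS2, and 2 libraries per group limit every test.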
